A study of Rattus norvegicus with 12 samples.

Results

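The retinoblastoma and E2F circuit decides whether a cell leaves G1 and copies its DNA, and 10 of its genes were followed here across the livers of newborn rats. They are the transcription factors E2f1, E2f3 and E2f5, the pocket proteins Rb1, Rbl1 and Rbl2, the cyclins Ccnd1 and Ccne1, the kinase Cdk4 and the kinase inhibitor Cdkn1a. Probes were taken by gene symbol, with no use of the measured values. The genes themselves were chosen with earlier results of these data known. Of the 10 genes, 8 had a named probe among the 13327 genes named on the array, and E2f5 and Rbl1 had none named here. The 8 genes had 9 probes, with a pair for E2f3, of 22505 probes on the array, and all 9 were among the 15753 probes bright enough to be tested.

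RNA from 12 individual livers of male Wistar rats aged 1 day was measured on an Illumina rat expression BeadChip, with 4 livers in each of 3 groups. In the MLP group the dam ate a low protein diet during pregnancy, in the MLP-F group she ate that diet with added folic acid, and in the C group she ate the control diet. All pups were untreated themselves, and by the study's methods each diet was represented by a single litter. The 4 livers of a group are thus littermates, diet and litter cannot be told apart, and each p-value measures the spread among pups of a litter. Levels are on a re-expanded log2 scale, in which the deposited value v becomes 2 to the power v minus 16, so that a difference of 1 would be a doubling if the reading of the scale holds. The differences of dim probes are understated on it. The whole liver was measured, so fewer cells of a type and less RNA per cell cannot be told apart.

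E2F factors bind DNA together with a DP partner and switch on the genes of DNA synthesis. In resting cells the pocket proteins sit on E2F and keep those genes low. Cyclin D with Cdk4, and then cyclin E with its own kinase, phosphorylate the pocket proteins and set E2F free, while the p21 protein made from Cdkn1a blocks the kinases. Rbl2 has a further role in quiescent cells, where it joins the MuvB proteins in the DREAM complex that holds cell cycle genes down. The liver around birth still contains dividing hepatocytes and the last of its blood-forming cells, whereas most adult hepatocytes are at rest until injury, when cyclin D1 is among the early genes of their return to the cycle.

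Of the 12 livers, 3 were singled out here. C replicate 4 carried skeletal muscle markers (median level 4.86) and was highest in lung epithelium markers (1.77), and C replicate 1 carried smooth muscle, fibroblast and keratinocyte markers (medians 2.60, 3.97 and 2.67). C replicate 4 was next highest in smooth muscle and fibroblast markers (medians 1.095 and 2.03) and had the highest sum of cholangiocyte markers (10.2). Over the probes tested, the liver closest to MLP-F replicate 2 was C replicate 2 (r = 0.993), while none of its own littermates came above 0.988. In turn, C replicates 1 and 2 were closest to MLP-F replicate 2 (r = 0.9851 and 0.9929). Their highest r within C was 0.9845 and 0.9893, so which of these livers is unusual cannot be told from this. The median of the hepatocyte markers lay between 6.18 and 7.23 in all 12 livers.

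No probe of the set passed limma's test at an adjusted p under 0.05 in any comparison. Between MLP and C it called 4.35% of all probes tested, between MLP-F and C 0.482% and between MLP and MLP-F 6.58%. At an unadjusted p under 0.05 the set had 2 of 9 probes between MLP and C (Rbl2 and E2f1), 0 between MLP-F and C, and 2 between MLP and MLP-F (E2f1 and Ccnd1), where over all probes tested the share was 17.3%, 14.9% and 19.5%. The median difference over the 9 probes was -0.075 between MLP and C, 0.027 between MLP-F and C and -0.033 between MLP and MLP-F, while over all probes tested the medians were 0.0037, 0.0044 and -0.0012. Groups were fully apart for 1 of 9 probes between MLP and C (Rbl2), where 12.2% of all probes tested had groups that did not overlap. Between MLP and MLP-F this held for 1 of 9 (E2f1) against 12%, and between MLP-F and C for 0 of 9 against 6.27%.

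**Figure D1:**
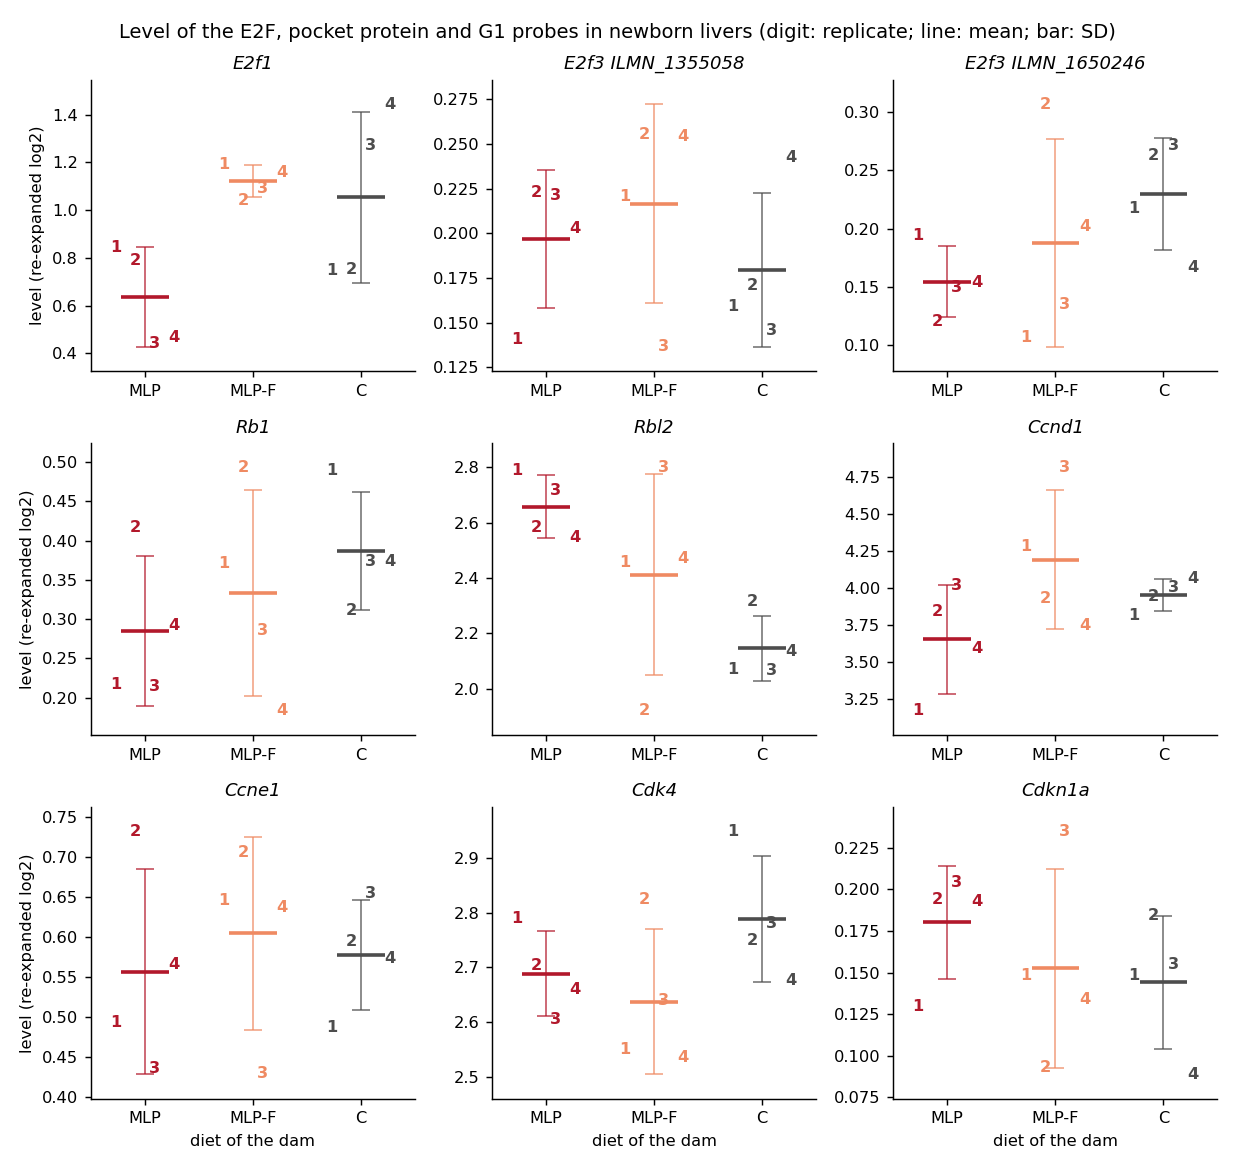
Level of each of the 9 probes (re-expanded log2, each panel with its own axis) in the MLP, MLP-F and C livers. Digits are the replicates 1 to 4, the thick line is the group mean and the bar is ± 1 SD. In the Rbl2 panel all MLP livers lie above all C livers, and in the E2f1 panel all MLP livers lie below all MLP-F livers.

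E2f1 (ILMN_1360877) encodes an activating E2F whose own gene is also switched on by E2F. Its level was 0.842, 0.787, 0.444 and 0.469 in MLP replicates 1 to 4, 1.19, 1.04, 1.09 and 1.16 in MLP-F replicates 1 to 4, and 0.747, 0.750, 1.27 and 1.44 in C replicates 1 to 4. The MLP livers were all below the MLP-F livers, while the C livers spanned both, with C replicates 1 and 2 inside the range of MLP. MLP averaged 0.635 ± 0.208, MLP-F 1.12 ± 0.066 and C 1.05 ± 0.359 (SD, n = 4 each), so MLP was lowest, and the means of MLP-F and C were closer than the spread of C. E2f1 differed by -0.49 between MLP and MLP-F (SE 0.16, 95% interval -0.83 to -0.14), which did not pass over all probes (adjusted p = 0.0958). Between MLP and C it differed by -0.42 (SE 0.16, 95% interval -0.76 to -0.08, adjusted p = 0.185) and between MLP-F and C by 0.07 (95% interval -0.27 to 0.41, adjusted p = 0.890). A fit of MLP and MLP-F alone, without the spread of the C livers, called the first of these (adjusted p = 0.0253), and without C replicates 1 and 4 it stood just outside the threshold (adjusted p = 0.0518).

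E2f3, another activating E2F, was read by 2 probes that are both dim, at the 43.5 and 41.7 percentiles of mean level. ILMN_1355058 ranged from 0.141 to 0.223 in MLP livers, from 0.137 to 0.256 in MLP-F livers and from 0.146 to 0.242 in C livers. ILMN_1650246 ranged from 0.120 to 0.194 in MLP livers, from 0.107 to 0.307 in MLP-F livers and from 0.167 to 0.271 in C livers. The groups overlapped for both probes in each comparison. Between MLP and C the probes gave differences of opposite sign, 0.02 (95% interval -0.07 to 0.10, adjusted p = 0.893) and -0.08 (95% interval -0.18 to 0.03, adjusted p = 0.476). On this scale a change of a dim probe is compressed, so these narrow intervals limit only what the array could show.

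Rbl2 (ILMN_1360394) encodes p130, the pocket protein that is most abundant in resting cells. Its level was 2.79, 2.58, 2.72 and 2.55 in MLP replicates 1 to 4, 2.46, 1.92, 2.80 and 2.47 in MLP-F replicates 1 to 4, and 2.07, 2.32, 2.06 and 2.13 in C replicates 1 to 4. Each MLP liver was above each C liver, and 3 of the 4 MLP-F livers were also above all C livers, while MLP-F replicate 2 lay below them. The means were, in falling order, 2.66 ± 0.114 in MLP, 2.41 ± 0.364 in MLP-F and 2.15 ± 0.118 in C (SD, n = 4 each), and neither MLP and MLP-F nor MLP-F and C differed beyond the spread of MLP-F. Rbl2 was the member with the smallest p-value, at a difference of 0.51 between MLP and C (SE 0.15, 95% interval 0.19 to 0.84, adjusted p = 0.0801 by limma). It differed by 0.27 between MLP-F and C (95% interval -0.06 to 0.59, adjusted p = 0.446) and by 0.25 between MLP and MLP-F (95% interval -0.08 to 0.57, adjusted p = 0.422).

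Between MLP and C, Rbl2 passed only in fits that left out MLP-F livers, and in no fit without 1 MLP or C liver. Its difference ran from 0.47 to 0.57 when 1 liver was left out. With only the MLP and C livers in the fit the SE was 0.0757 and Rbl2 passed (adjusted p = 0.00830), and it passed without MLP-F replicate 2 (adjusted p = 0.0120) and without MLP-F replicate 3 (adjusted p = 0.0388). Without MLP-F replicate 2 it also passed between MLP-F and C, at 0.43 (adjusted p = 0.0316). That fit called 940 of all probes tested between MLP-F and C, against 76 with all 12 livers. Without C replicates 1 and 4 as well, Rbl2 did not pass between MLP-F and C (0.39, adjusted p = 0.189). Between MLP and MLP-F its difference without MLP-F replicate 2 was 0.08 (adjusted p = 0.733). Without C replicates 1 and 4 the difference between MLP and C was 0.47 and did not pass (adjusted p = 0.341), in a fit with fewer C livers.

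Rb1 (ILMN_1371917), the gene of the retinoblastoma protein itself, was at 0.216, 0.417, 0.214 and 0.292 in MLP replicates 1 to 4, at 0.371, 0.493, 0.286 and 0.183 in MLP-F replicates 1 to 4, and at 0.490, 0.310, 0.373 and 0.373 in C replicates 1 to 4. All MLP livers but replicate 2 were below every C liver, and replicate 2 was above most of them, so the groups overlapped. Rb1 differed by -0.10 between MLP and C (SE 0.07, 95% interval -0.26 to 0.05, adjusted p = 0.531), by -0.05 between MLP-F and C (95% interval -0.21 to 0.10, adjusted p = 0.781) and by -0.05 between MLP and MLP-F (95% interval -0.20 to 0.11, adjusted p = 0.807).

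**Figure D2:**
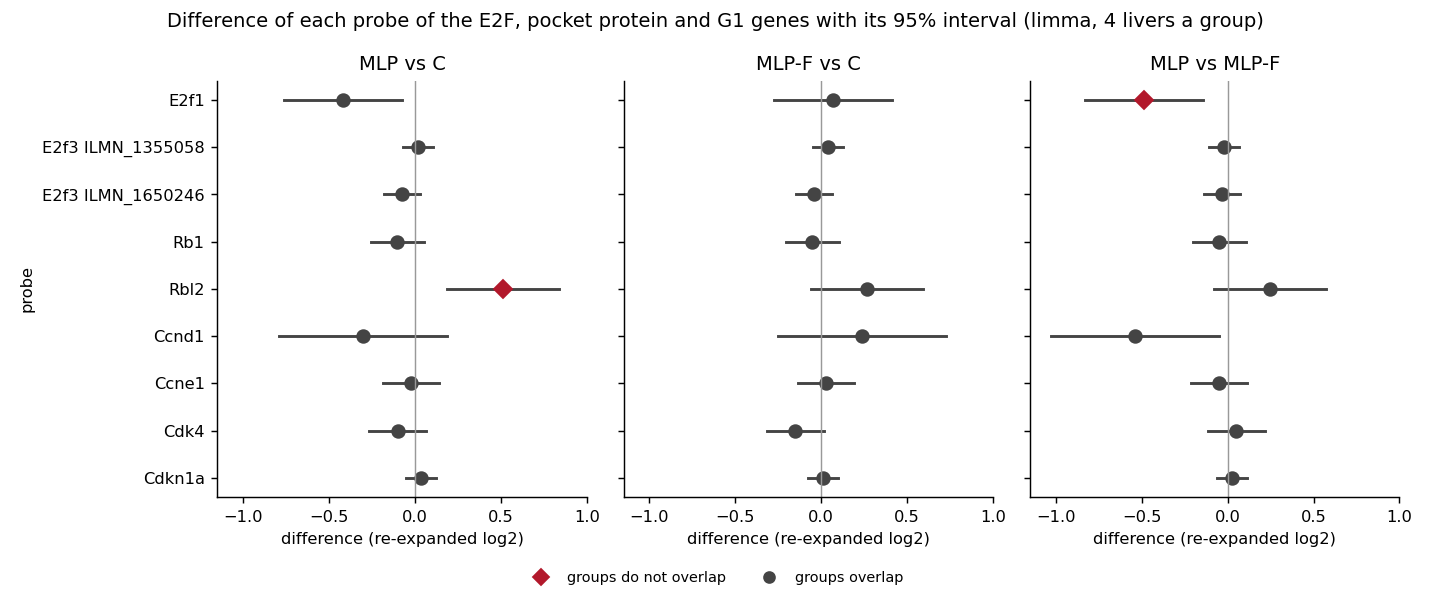
Difference of each of the 9 probes (points, re-expanded log2) with its 95% interval from limma, in a panel for each of the 3 comparisons. Diamonds mark groups that do not overlap, which are Rbl2 at 0.51 between MLP and C and E2f1 at -0.49 between MLP and MLP-F, and no probe passed an adjusted p of 0.05.

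The promoters of the pocket proteins and of E2f3 are shown because E2F regulates several genes of its own circuit. They come from RefSeq on the GRCr8 build and run from 250 bases before to 50 bases after the annotated start, and 7 of the 10 genes matched the table (E2f3, Rb1, Rbl1, Rbl2, Ccne1, Cdk4 and Cdkn1a). Each was searched on both strands for 4 spellings of the E2F element, TTTCGCGC, TTTGGCGC, TTTCCCGC and TTTGCCGC, which can overlap each other on opposite strands, and for the cell cycle homology region letters TTTGAA and TTCGAA. At least 1 E2F spelling was present in 2.14% of 33469 rat promoters and at least 1 of the other letters in 19.7%. Among the 7 promoters, 3 held an E2F spelling (E2f3, Rb1 and Rbl1) and Rbl2, Ccne1, Cdk4 and Cdkn1a held none in this window. TTTGAA lay in those of E2f3 and Rbl2. A match is a description of the letters and not a measured site. In the lines here 60 bases around the match are given 5′ to 3′ on the gene's own strand with the E2F spelling or its reverse complement in capitals, and for Rbl2 the whole window is given with TTTGAA in capitals. These promoters were picked after the values were known, since no member was called.
Rb1, chr15:54911822-54911881, minus strand: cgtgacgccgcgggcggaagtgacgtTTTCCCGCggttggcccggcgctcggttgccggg
Rbl1, chr3:166289361-166289420, minus strand: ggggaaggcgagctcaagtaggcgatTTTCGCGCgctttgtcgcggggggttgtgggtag
E2f3, chr17:34810312-34810371, plus strand: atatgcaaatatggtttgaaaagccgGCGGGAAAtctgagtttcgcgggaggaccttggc
Rbl2, chr19:32096362-32096661, minus strand: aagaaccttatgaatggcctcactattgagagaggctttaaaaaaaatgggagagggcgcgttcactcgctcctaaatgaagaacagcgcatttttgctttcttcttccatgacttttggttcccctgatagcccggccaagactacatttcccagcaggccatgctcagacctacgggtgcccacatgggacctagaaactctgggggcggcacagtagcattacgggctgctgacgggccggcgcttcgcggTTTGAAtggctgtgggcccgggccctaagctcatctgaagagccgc

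Counted from the annotated start, the match began 18 bases upstream in Rbl1, 78 bases upstream in E2f3 and at base 3 of the transcript in Rb1. The letters TTTGAA began at base 5 of the transcript in Rbl2. Of the 2 measured members with an E2F spelling, Rb1 and E2f3, neither passed the test in any comparison. Rbl2, whose levels moved most between MLP and C, had none in the window. With all livers in the fit no member passed, Rbl2 included, so members with and without a spelling cannot be compared by their calls. E2f1, whose MLP livers were all below the MLP-F livers, and Ccnd1 had no matched promoter and were not searched. Whether the letters go with the levels was not tested.

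Ccnd1 (ILMN_1350372) encodes cyclin D1, which pairs with Cdk4 in response to growth signals. Its level was 3.17, 3.84, 4.02 and 3.59 in MLP replicates 1 to 4, 4.28, 3.93, 4.81 and 3.75 in MLP-F replicates 1 to 4, and 3.81, 3.94, 4.00 and 4.07 in C replicates 1 to 4. The C livers lay close together while the MLP livers reached lower and the MLP-F livers higher, and all groups overlapped. The means were 3.65 ± 0.369 in MLP, 4.19 ± 0.471 in MLP-F and 3.96 ± 0.108 in C (SD, n = 4 each). Ccnd1 differed by -0.54 between MLP and MLP-F (SE 0.22, 95% interval -1.03 to -0.05, adjusted p = 0.204), by -0.30 between MLP and C (95% interval -0.79 to 0.19, adjusted p = 0.564) and by 0.24 between MLP-F and C (95% interval -0.25 to 0.73, adjusted p = 0.680). Without MLP replicate 1, the lowest liver, the difference was -0.38 between MLP and MLP-F (adjusted p = 0.428) and -0.14 between MLP and C (adjusted p = 0.828). Without MLP-F replicate 3, the highest liver, it was -0.33 between MLP and MLP-F (adjusted p = 0.400) and 0.03 between MLP-F and C (adjusted p = 0.965).

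Cdk4 (ILMN_1373114), the kinase partner of cyclin D1, was at 2.79, 2.70, 2.60 and 2.66 in MLP replicates 1 to 4, at 2.55, 2.82, 2.64 and 2.53 in MLP-F replicates 1 to 4, and at 2.95, 2.75, 2.78 and 2.68 in C replicates 1 to 4. All groups overlapped, with a mean of 2.69 ± 0.078 in MLP, 2.64 ± 0.133 in MLP-F and 2.79 ± 0.115 in C (SD, n = 4 each). The difference was -0.10 between MLP and C (95% interval -0.26 to 0.07, adjusted p = 0.573), -0.15 between MLP-F and C (95% interval -0.32 to 0.01, adjusted p = 0.382) and 0.05 between MLP and MLP-F (95% interval -0.11 to 0.22, adjusted p = 0.807).

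Ccne1 (ILMN_1366252) encodes cyclin E1, which acts at the end of G1. Its level was 0.493, 0.732, 0.436 and 0.566 in MLP replicates 1 to 4, 0.647, 0.706, 0.430 and 0.637 in MLP-F replicates 1 to 4, and 0.488, 0.595, 0.655 and 0.574 in C replicates 1 to 4. The groups lay over each other, and the differences were -0.02 between MLP and C (95% interval -0.18 to 0.14, adjusted p = 0.935), 0.03 between MLP-F and C (95% interval -0.14 to 0.19, adjusted p = 0.908) and -0.05 between MLP and MLP-F (95% interval -0.21 to 0.11, adjusted p = 0.820). Its sister gene Ccne2 behaved otherwise and is given with the partners.

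Cdkn1a (ILMN_1361122) encodes p21, the kinase inhibitor that p53 induces. It lay just inside the filter on dim probes, at the 30.5 percentile of mean level where the limit was the 30th. Its level was 0.130, 0.194, 0.204 and 0.193 in MLP replicates 1 to 4, 0.148, 0.0933, 0.235 and 0.134 in MLP-F replicates 1 to 4, and 0.148, 0.184, 0.155 and 0.0888 in C replicates 1 to 4. No difference exceeded the spread of the livers, with 0.04 between MLP and C (95% interval -0.05 to 0.12, adjusted p = 0.727), 0.01 between MLP-F and C (adjusted p = 0.950) and 0.03 between MLP and MLP-F (adjusted p = 0.802). At this brightness a change in p21 mRNA may not be detectable.

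Around these members, some direct partners did pass between MLP and C. The counts are read against the 2.08% of all probes tested that were called lower and the 2.27% called higher in MLP. Of 5 probes of the E2F and DP family, which include those of E2f1 and E2f3, 1 fell and 0 rose. The one that fell was Tfdp1, the DP partner that E2F1 needs to bind DNA. Tfdp1 was at 3.58, 3.46, 3.41 and 3.59 in MLP replicates 1 to 4, at 4.11, 4.09, 3.86 and 4.30 in MLP-F replicates 1 to 4, and at 4.07, 3.79, 3.97 and 3.76 in C replicates 1 to 4. All MLP livers were below all livers of both other groups, and the difference was -0.39 between MLP and C (SE 0.09, adjusted p = 0.0437) and -0.58 between MLP and MLP-F (SE 0.09, adjusted p = 0.00591). The call against C was lost in 9 of 12 fits that left out 1 liver (adjusted p up to 0.119, without MLP replicate 2), and that against MLP-F in none of them. Tfdp2, the other DP gene, differed by -0.21 between MLP and C (adjusted p = 0.446) and by -0.27 between MLP and MLP-F (adjusted p = 0.267).

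Of 7 probes of the pocket proteins and the MuvB and Myb partners, with Rb1 and Rbl2 among them, 1 fell between MLP and C and 0 rose. It was Mybl1, a Myb family transcription factor, at 0.211, 0.295, 0.192 and 0.401 in MLP replicates 1 to 4, 0.556, 0.705, 0.441 and 0.702 in MLP-F replicates 1 to 4, and 0.610, 0.486, 0.633 and 0.640 in C replicates 1 to 4. The MLP livers were below all others, by -0.32 on average between MLP and C (SE 0.07, adjusted p = 0.0272) and -0.33 between MLP and MLP-F (SE 0.07, adjusted p = 0.0181). The first call was lost in 6 of 12 fits without 1 liver (adjusted p up to 0.0793, without MLP replicate 3) and the second in 3 of 12. Lin54, the DNA-binding subunit of MuvB, differed by -0.27 between MLP and C (adjusted p = 0.265), and Mybl2, the Myb protein that replaces the pocket protein on MuvB in S phase, by -0.16 (adjusted p = 0.635).

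Of 9 probes of G1 cyclins and kinases, with Ccnd1, Ccne1 and Cdk4 among them, 1 fell between MLP and C and 0 rose. Ccne2, the gene of cyclin E2, was at 0.489, 0.465, 0.271 and 0.696 in MLP replicates 1 to 4, at 0.611, 0.841, 0.667 and 0.844 in MLP-F replicates 1 to 4, and at 1.06, 0.972, 1.09 and 1.18 in C replicates 1 to 4. The MLP and the MLP-F livers were all below the C livers, and MLP and MLP-F overlapped. Ccne2 fell by 0.60 between MLP and C (SE 0.09, adjusted p = 0.00587, called in all 12 fits without 1 liver), and differed by -0.34 between MLP-F and C (adjusted p = 0.109) and by -0.26 between MLP and MLP-F (adjusted p = 0.112). Without C replicates 1 and 4 its adjusted p between MLP and C was 0.0515. Without MLP-F replicate 2 Ccne2 passed between MLP-F and C as well, at -0.37 (adjusted p = 0.0481), and this was the only 1 of the 12 fits without 1 liver in which it did. In this fit 940 of all probes tested were called between MLP-F and C, against 76 with all 12 livers. The other kinase of cyclin D, Cdk6, differed by -0.01 (adjusted p = 0.947).

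Of 6 probes of kinase inhibitors, with Cdkn1a among them, 1 rose between MLP and C and 0 fell. Cdkn1c, an imprinted gene that encodes p57, was at 1.08, 1.23, 1.13 and 0.893 in MLP replicates 1 to 4, at 0.8285, 0.702, 0.666 and 0.600 in MLP-F replicates 1 to 4, and at 0.794, 0.701, 0.673 and 0.892 in C replicates 1 to 4. MLP replicate 4 (0.8931) and C replicate 4 (0.8919) were all but equal, so the groups were only just apart. Cdkn1c rose by 0.32 between MLP and C (SE 0.08, adjusted p = 0.0421) and by 0.38 between MLP and MLP-F (SE 0.08, adjusted p = 0.0141). The first call was lost in 7 of 12 fits without 1 liver (adjusted p up to 0.118, without MLP replicate 2) and the second in none. Cdkn1b, which encodes p27, differed by -0.30 between MLP and C (adjusted p = 0.167) and Cdkn3, a phosphatase of cyclin-dependent kinases that is listed with the inhibitors, by -0.54 (adjusted p = 0.0789).

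Of 12 probes listed with the ubiquitin ligases of G1 and S phase, 3 fell between MLP and C and 0 rose, and none of the 3 is a ligase. Cks1b, the cofactor through which Skp2 recognises p27, fell by 0.63 (SE 0.13, adjusted p = 0.0204), with 2.45 to 2.73 in MLP livers, 2.48 to 3.18 in MLP-F livers and 3.12 to 3.24 in C livers. Cks2, its relative that binds cyclin-dependent kinases, fell by 0.91 (SE 0.22, adjusted p = 0.0401), with 3.07 to 3.49 in MLP livers, 3.33 to 4.52 in MLP-F livers and 4.01 to 4.33 in C livers. Fbxo5, an inhibitor of the anaphase-promoting complex, fell by 0.60 (SE 0.13, adjusted p = 0.0272), with 1.37 to 1.89 in MLP livers, 1.80 to 2.25 in MLP-F livers and 1.95 to 2.35 in C livers. All 4 MLP livers were below all C livers for each of them, and the calls were lost in 4, 8 and 6 of 12 fits without 1 liver, with Cks2 the least steady. Skp2 itself differed by -0.05 (adjusted p = 0.443). Without C replicates 1 and 4 limma called no probe of the E2F and DP, pocket protein, G1 cyclin, inhibitor or ligase lists between MLP and C (adjusted p = 0.160 for Tfdp1, 0.187 for Mybl1 and 0.0719 for Cdkn1c).

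**Figure D3:**
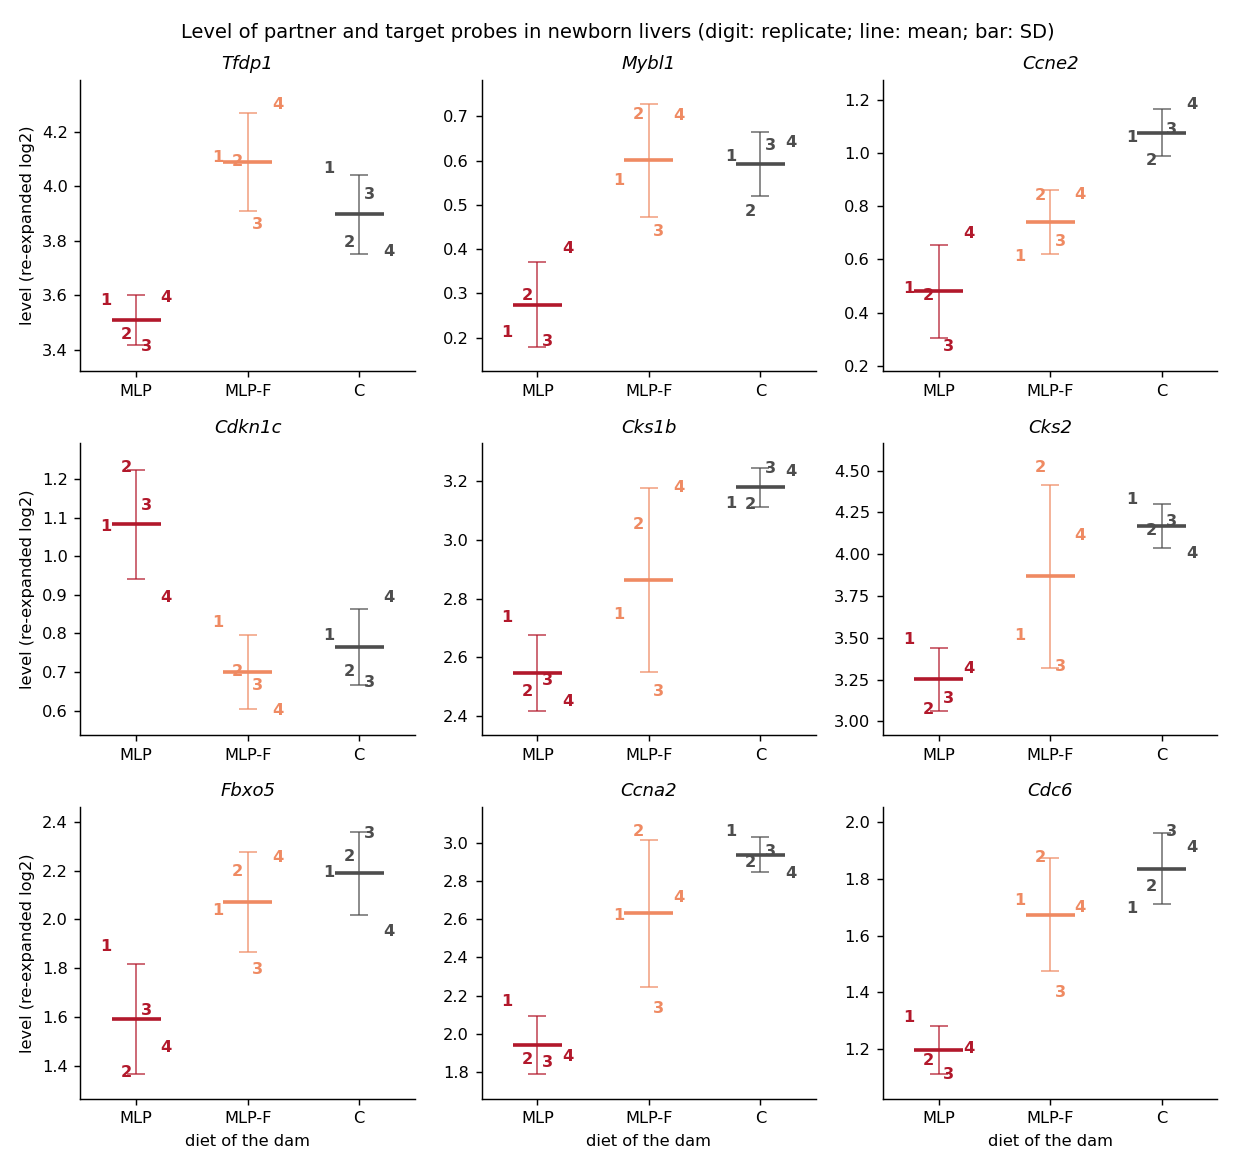
Level of 7 partner probes and of the E2F targets Ccna2 and Cdc6 (re-expanded log2, each panel with its own axis) in the MLP, MLP-F and C livers. Digits are the replicates 1 to 4, the thick line is the group mean and the bar is ± 1 SD. In each panel the MLP livers lie below the C livers, except Cdkn1c, where they lie above them, with MLP replicate 4 at 0.8931 and C replicate 4 at 0.8919.

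The genes that E2F is known to switch on had larger differences than the members did. The members include dim probes (those of E2f3 and Cdkn1a), whose differences are understated on this scale, and the sets were not matched for brightness. Of 30 probes of known E2F target genes tested, 20 fell between MLP and C and 0 rose, with 28 of 30 differences below 0 and a median of -0.63 against 0.0037 over all probes. Between MLP and MLP-F 17 of 30 fell and 0 rose, with a median of -0.48, where 3.05% of all probes tested were called lower and 3.53% higher. Between MLP-F and C limma called 0 of 30, the median was -0.17, and 8 probes were below 0.05 before adjustment, where 14.9% of all probes tested were. Without MLP-F replicate 2 it called 3 of them lower, in a fit that called 940 of all 15753 probes tested. They were Ezh2, a histone methyltransferase gene (adjusted p = 0.00405), Rrm2 (adjusted p = 0.0185) and Ccne2. Ezh2 alone stayed called when C replicates 1 and 4 were left out too (adjusted p = 0.0336), where 227 of all probes tested were called. The comparisons share livers, so these counts are not independent of each other. The number called between MLP and C was 14 to 21 when 1 liver was left out, 7 without C replicates 1 and 4, and 13 without MLP-F replicate 2 as well. Between MLP and MLP-F it was 9 (without MLP replicate 3) to 18 (without C replicate 3) when 1 liver was left out, and 14 without C replicates 1 and 4. The list chiefly holds genes of DNA replication, and it was drawn up with results of these livers known.

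Rrm2, a subunit of the enzyme that makes deoxyribonucleotides, fell by 1.17 between MLP and C (SE 0.13, adjusted p = 0.00176), with 2.64 to 2.91 in MLP livers, 2.94 to 3.56 in MLP-F livers and 3.70 to 4.16 in C livers. The groups were in 3 separate bands, with MLP-F between the others. Cdc6, which loads the replicative helicase at origins, was at 1.31, 1.16, 1.11 and 1.20 in MLP replicates 1 to 4, 1.72, 1.87, 1.40 and 1.70 in MLP-F replicates 1 to 4, and 1.69, 1.77, 1.97 and 1.91 in C replicates 1 to 4. It fell by 0.64 between MLP and C (SE 0.09, adjusted p = 0.00595) and by 0.48 between MLP and MLP-F (SE 0.09, adjusted p = 0.0135), and both calls held in all 12 fits without 1 liver. Orc1, a subunit of the origin recognition complex, fell by 0.49 (adjusted p = 0.0151), Rpa2, which coats single-stranded DNA, by 0.67 (adjusted p = 0.00746) and Pola2, a subunit of the priming polymerase, by 0.52 (adjusted p = 0.00747) between MLP and C. Tmpo, a protein of the nuclear lamina, fell by 0.64 between MLP and C (adjusted p = 0.0204) and by 1.05 between MLP and MLP-F (adjusted p = 0.00164), and was at 0.41 between MLP-F and C (adjusted p = 0.175). Not all targets followed, since between MLP and C the checkpoint kinase gene Chek1 differed by -0.13 (adjusted p = 0.411), Cdt1, the partner of Cdc6, by -0.37 (adjusted p = 0.120) and the uracil glycosylase gene Ung by 0.14 (adjusted p = 0.692).

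**Figure D4:**
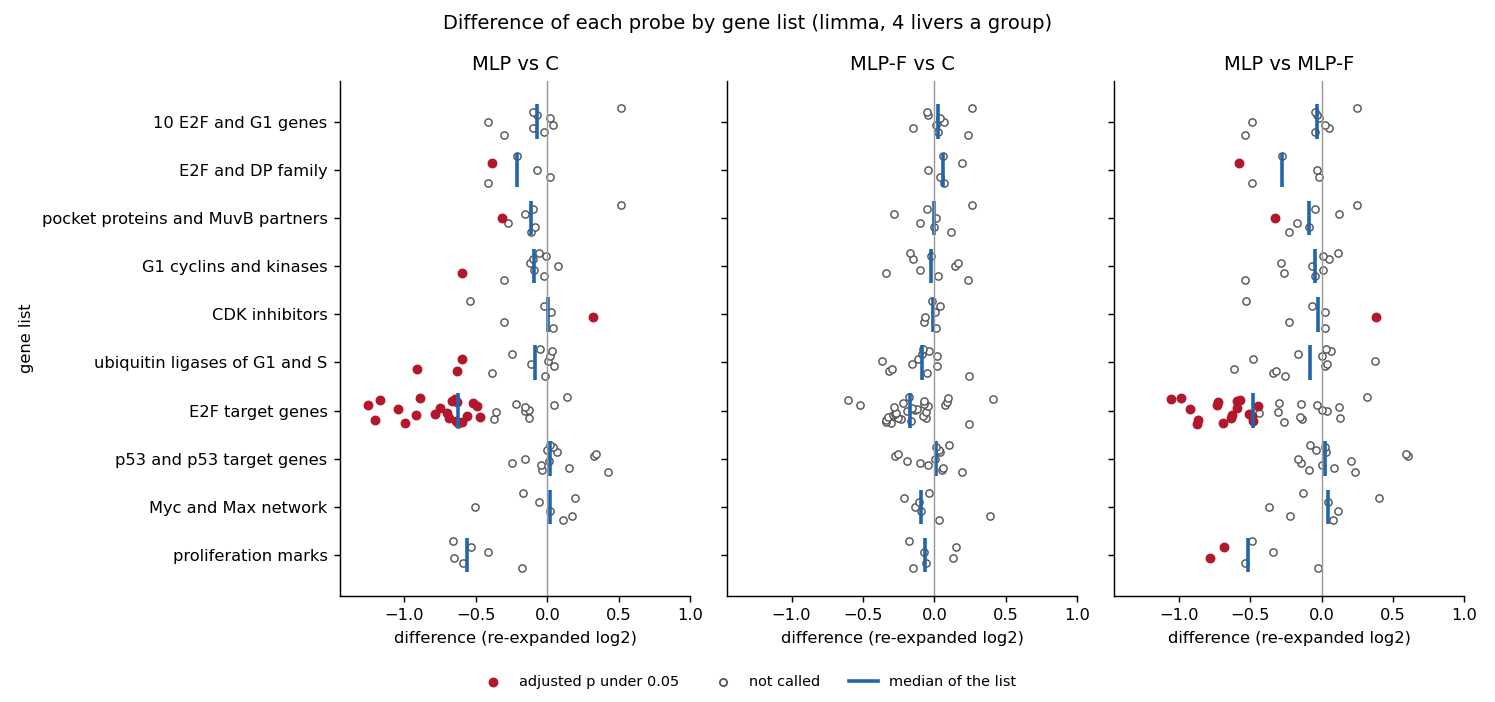
Difference of each probe tested (points, re-expanded log2) by gene list, in a panel for each of the 3 comparisons. Filled points passed an adjusted p of 0.05 and blue lines are list medians, and a gene that is in more than 1 list is drawn in each. The E2F target genes lie furthest to the left between MLP and C, with a median of -0.63, while the 10 E2F and G1 genes have a median of -0.075 and no filled point. The lists were not matched for brightness, and differences of dim probes are understated.

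The promoters of targets that fell are shown for comparison with those of the pocket proteins. Of 28 genes of the E2F target list with a promoter in the table, 17 held an E2F spelling, against 2.14% of all promoters. A gene was counted if any of its promoters held one. The list is of known E2F targets, so this excess was built in and says nothing about these livers. Among these 28, 15 were called lower between MLP and C and 11 of the 15 held a spelling, while 5 of the 7 that were tested and not called held one. The 3 called targets with the smallest adjusted p that hold a spelling are given with it in capitals (1 of the 2 matches of Mcm7 lies in the stretch shown), and in Mcm6 and Mcm2 a pair of spellings on opposite strands overlap. They encode subunits of the replicative helicase.
Mcm7, chr12:22163369-22163428, minus strand: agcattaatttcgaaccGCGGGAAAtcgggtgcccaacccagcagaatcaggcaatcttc
Mcm6, chr13:42404458-42404517, minus strand: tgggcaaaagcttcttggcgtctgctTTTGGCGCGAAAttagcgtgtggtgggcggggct
Mcm2, chr4:122918075-122918134, minus strand: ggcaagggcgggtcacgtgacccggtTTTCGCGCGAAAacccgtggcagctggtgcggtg

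The match began 233 bases upstream of the start in Mcm7, 139 bases upstream in Mcm6 and 14 bases upstream in Mcm2. Mcm7 was at 2.53, 2.45, 2.31 and 2.37 in MLP replicates 1 to 4, 2.99, 3.06, 2.78 and 3.21 in MLP-F replicates 1 to 4, and 2.92, 3.10, 3.41 and 3.23 in C replicates 1 to 4. All MLP livers were below all others, which overlapped each other.

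The lists of p53 and Myc, which also act on G1, gave 0 calls in each comparison with all 12 livers. Of 13 probes of p53 and its targets 1 was at an unadjusted p under 0.05 between MLP and C, where 17.3% of all probes tested were, and the median difference was 0.02. The largest difference was that of Aen, a nuclease induced by p53, at 0.43 (adjusted p = 0.201). Between MLP and MLP-F the groups were fully apart for 2 of the 13, where this held for 12% of all probes tested. In some fits with fewer livers 1 probe passed as higher. It was Phlda3, a p53-induced repressor of Akt, without MLP-F replicate 2 (0.67, adjusted p = 0.0369) and without C replicate 3 (0.59, adjusted p = 0.0206). Without C replicate 1 it was Perp, a p53-induced protein of desmosomes, which then passed between MLP and MLP-F (0.60, adjusted p = 0.00965) and between MLP and C (0.57, adjusted p = 0.0326). Perp is also among the keratinocyte markers, which C replicate 1 carried. Of 7 probes of the Myc and Max network 2 were at an unadjusted p under 0.05, Mycn at -0.17 (adjusted p = 0.208) and Mxd3, a Myc antagonist, at -0.50 (adjusted p = 0.0558), and Myc itself differed by 0.19 (adjusted p = 0.605). Without MLP-F replicate 2 Mycn passed between MLP and C (adjusted p = 0.0413) and Mnt, another Myc antagonist, passed between MLP-F and C at 0.46 (adjusted p = 0.0340), where that fit called 940 of all probes tested. Mxd3 passed between MLP and C without C replicate 4 (adjusted p = 0.0289) and without MLP-F replicate 3 (adjusted p = 0.0456). Of 6 probes of proliferation marks 0 passed between MLP and C although 5 were at an unadjusted p under 0.05 (17.3% of all probes tested were) and all 6 differences were below 0, with a median of -0.56. When 1 liver was left out 0 to 4 of them passed, the 4 without MLP-F replicate 3. Between MLP and MLP-F 2 of these fell, the mitotic kinase gene Plk1 by 0.68 (adjusted p = 0.0325) and Cdc20, an activator of the anaphase-promoting complex, by 0.78 (adjusted p = 0.0219). The call on Plk1 was lost in 6 of 12 fits without 1 liver (adjusted p up to 0.0888, without MLP-F replicate 4) and that on Cdc20 in 4 of 12 (adjusted p up to 0.0669, without MLP replicate 3), and the count of 2 became 0 without MLP replicate 3 and 5 without MLP-F replicate 3.

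Markers of other cell types moved in part with the same groups. The summed level of 9 erythroid probes was 23.1 to 26.8 in MLP livers, 21.8 to 24.1 in MLP-F livers and 23.9 to 26.0 in C livers, and 2 of them rose and 3 fell between MLP and C. That of 7 macrophage and Kupffer cell probes was 13.1 to 16.3 in MLP livers, 12.6 to 14.7 in MLP-F livers and 12.6 to 13.4 in C livers, and 1 of them rose. Of 10 hepatocyte probes, which summed to 59.2 to 60.7 in MLP livers, 55.3 to 58.5 in MLP-F livers and 55.7 to 60.1 in C livers, 0 passed between MLP and C. For 4 endothelial probes, 3 of them tested, the sum was 4.77 to 5.31 in MLP livers, 4.39 to 4.95 in MLP-F livers and 4.43 to 4.72 in C livers, so that MLP and C were fully apart although 0 passed. For 7 smooth muscle probes the sum was 4.92 to 5.50 in MLP livers, 5.94 to 6.77 in MLP-F livers and 5.74 to 19.8 in C livers. All MLP livers were thus below all others, although 0 passed. The hepatocyte, skeletal muscle and keratinocyte sums were fully apart between MLP and MLP-F, with MLP higher, but the medians of these lists overlapped. The skeletal muscle medians were 0.148 to 0.246 in MLP and 0.151 to 0.303 in MLP-F livers. The keratinocyte medians were 0.130 to 0.195 in MLP and 0.164 to 0.215 in MLP-F livers. In the keratinocyte list Perp alone differed by 0.60 (adjusted p = 0.121), while the median difference was -0.007. By list median, macrophage markers were higher in all MLP-F livers (1.89 to 2.47) than in all C livers (1.28 to 1.51). Lymphocyte and neutrophil medians were also highest in MLP-F livers (0.358 to 0.584, against 0.213 to 0.277 in MLP and 0.207 to 0.248 in C), though the sums overlapped. Fibroblast medians were lower in all MLP livers (0.609 to 0.857) than in all MLP-F livers (0.928 to 1.66). Between MLP and MLP-F 1 hepatocyte, 2 macrophage, 2 erythroid and 1 endothelial probe rose and 2 erythroid probes fell. The part of these cells in the levels of E2f1, Rbl2 and the E2F targets was not tested.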

How the data were processed

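Liver RNA of 12 pups was hybridised to Illumina RatRef-12 BeadChips by the authors, whose methods name beadarray, limma and quantile normalization, and who deposited 1 log2 value per probe and sample. The deposited log2 values run from 4.0042 to 4.6332, and were read as log2 of 16 plus a value already on a log2 scale. Each was converted to 2^v-16 (0.0470 to 8.82, sample medians 0.226 to 0.228). This reading comes from the values, and no background correction is named in the sources used here. A further table with 12 columns named by chip position, which no label carries, was not used. No detection p-values or depths were used, so the number of arrays limits the precision.

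Probes were named from the platform table and updated by Entrez number through RefSeq, giving 1 symbol to 13778 of 22505 probes, several to 0 and none to 8727. Probes whose mean over the 12 samples exceeded the 30th percentile (0.158) were tested. With R 4.3.3 and limma 3.58.1, lmFit, contrasts.fit and eBayes fitted all 12 samples in 1 model of group means (9 residual degrees of freedom), with two-sided tests and Benjamini-Hochberg adjustment over 15753 probes. The fit was tested on simulated data. Intervals are 95%, from limma's moderated SE.

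All member probes are named, with up to 4 probes of each partner list by smallest p and any called between MLP and C. Other probes named from the lists, the promoters and the genes of like pattern were chosen after their values were seen. The members and lists were chosen with earlier results of these data known. Alternatives were deposited log2 values, other filters, a variance trend, quantile normalization again, 2 groups only, a replicate block, and fits without single or several livers. The fit without C replicates 1 and 4 and MLP-F replicate 2 together was chosen after seeing the data.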

Additional observations from a re-analysis of the deposited data

Results flagged for a closer look

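Among 27 groups of 4 livers (9 probes by 3 diets), 1 held a liver far from its littermates, where chance gives about 1 in 20. It was Cdkn1a in MLP replicate 1, at 0.130 against 0.193 to 0.204 in the other MLP livers, with a gap of 0.847 of the group's range. The probe lies close to the limit of the filter on dim probes, and its differences did not pass in any comparison.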

How the results depend on the processing

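With 1 liver left out, 0 or 1 of the 9 probes was called between MLP and C and between MLP-F and C, and 0 between MLP and MLP-F. With 2 groups in the fit 1 was called between MLP and C (Rbl2) and 1 between MLP and MLP-F (E2f1). Over all probes the 685 calls between MLP and C became 335 to 814 with 1 liver left out, 211 without C replicates 1 and 4 and 336 without MLP-F replicate 2 as well. The 76 between MLP-F and C became 1 to 940 with 1 liver left out (the highest without MLP-F replicate 2 and the lowest without replicate 3 of that group), 37 with no filter, 43 with a variance trend, 6 with 2 groups, 14 without C replicates 1 and 4 and 227 without MLP-F replicate 2 as well. The 1037 between MLP and MLP-F became 619 to 1355 with 1 liver left out. Fits with fewer livers have less power, and the cause of the other shifts was not tested.

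Signs turned only for differences near 0 that were not called. With 1 liver left out, E2f1 between MLP-F and C ran from -0.0344 to 0.198, Ccne1 from -0.00673 to 0.0854, Cdkn1a from -0.0191 to 0.0281, Ccne1 between MLP and C from -0.0793 to 0.0195, Rb1 between MLP and MLP-F from -0.0984 to 0.00477 and E2f3 (ILMN_1650246) from -0.0600 to 0.00686. Between MLP-F and C without C replicates 1 and 4, Ccne1 was at -0.0201 and Cdkn1a at -0.0172, and without MLP-F replicate 2 as well Ccne1 was at -0.0539. In that last fit Rb1 was at 0.00477 and E2f3 at 0.00686 between MLP and MLP-F.

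Replicate numbers did not pair the samples, since livers of the same number deviated together with r from -0.108 to 0.0666 (MLP and C), -0.217 to 0.0921 (MLP-F and C) and -0.0568 to 0.143 (MLP and MLP-F), and 1, 1 and 2 of 4 correlated best with their own number. A fit with the replicate number as a block called 562, 29 and 912 probes in these comparisons and 0 of the 9 member probes (Rbl2 adjusted p = 0.128, E2f1 0.168 between MLP and MLP-F). With it the E2F targets called were 16 between MLP and C and 14 between MLP and MLP-F, and of the genes named in the text Tfdp1 (adjusted p = 0.0634), Cdkn1c (0.0831), Cks2 (0.0735), Fbxo5 (0.0664) and Ezh2 (0.0649) were not called between MLP and C, nor Mcm2 (0.0570), Plk1 (0.0830) and Cdc20 (0.0589) between MLP and MLP-F, where Phlda3 was (0.0252). The probes of E2f3 and Cdkn1a are dim, and whether they lie above background was not tested.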

Other observations

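The probes most like a member over the 12 livers were listed for the 2 members with the smallest p, chosen after their values were seen and given as a description with no test, since the livers share 3 diets. Closest to E2f1 by Pearson's r were Cited4 (0.925), Pfkm (0.924) and Fen1 (0.912), a flap nuclease of DNA replication. Closest to Rbl2 were Ptdss2 (0.933), Tp53i13 (0.926) and Pink1 (0.922).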
